A study of Mus musculus with 22 samples.

Results

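The Krueppel-like factors described here are Klf2, Klf3, Klf4, Klf6, Klf7, Klf10, Klf11, Klf12 and Klf13, chosen by gene symbol. All 9 symbols matched an Ensembl identifier among the 49671 genes counted in the series. The cells were wild-type Balb/c mouse TH2 cells, which are CD4 T helper cells polarized in culture toward the type 2 cytokine programme, and RNA was taken on day 5. The 11 libraries of the calcitriol group come from cells given 100 nM calcitriol (the hormone made from vitamin D) over the final 24 hours, and the 11 of the vehicle group from cells given 2% ethanol. The mice of both groups had been bred for generations on diets holding 400, 1000 or 4000 IU of vitamin D3 per kg. The labels give no animal, sex, diet or culture for a library, so a p-value here covers variation among libraries, whatever its source, technical sources included, and the ethanol content of the calcitriol cultures is not stated.

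Krueppel-like factors (KLFs) are transcription factors that bind GC-rich and CACCC-type DNA elements through a run of closely related zinc fingers at the C-terminal end, while the remaining part of each protein recruits coactivators or corepressors. In T cells KLF2 is best known for holding resting cells quiescent and for switching on the receptors that let them leave and re-enter lymphoid tissue, and its transcript is lost on antigen stimulation. KLF10 and KLF11 were named as early genes induced by TGF-beta. KLF3 and KLF12 repress through the CtBP corepressors, and KLF13 activates the chemokine gene Ccl5 late after T cell stimulation.

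Between 3214171 and 20258430 reads were counted per library. The calcitriol libraries had a median of 8534490 and the vehicle libraries a median of 7320919. The T cell markers Cd3d, Cd3e, Cd4, Gata3 and Il4 together held 1215 to 1476 CPM (the count scaled to a fixed library size with TMM factors) in calcitriol libraries and 1202 to 1406 CPM in vehicle libraries. Of markers of other cells, the 4 myeloid genes summed to at most 1.203 CPM in calcitriol libraries and 0.704 CPM in vehicle libraries, and the 2 NK and 3 erythroid genes to at most 0.329 CPM in any library. The 3 B cell genes summed to at most 2.63 and 2.95 CPM in calcitriol and vehicle libraries. The 2 CD8 genes, almost all Cd8b1, summed to 2.52 to 9.53 CPM in calcitriol and 3.87 to 8.36 CPM in vehicle libraries, and the 3 dendritic cell genes to 2.03 to 6.12 and 3.87 to 6.73 CPM, mostly Zbtb46 with medians of 2.40 and 4.64 CPM. These levels are in the range of Klf2, Klf3, Klf4 and Klf11. Epcam, in the epithelial list, and Pecam1, in the endothelial list, stood higher, with medians of 20.2 and 73.4 CPM in calcitriol libraries against 8.96 and 36.9 CPM in vehicle libraries, while the defining genes Krt8 and Cdh5 had 3 and 0 counts over the whole series. The part of any of these markers in the changes below was not tested. On the second principal component of the 500 most variable genes, replicates 1 to 4 of each group scored above 0 (1.402 to 16.8) and the other 14 libraries below 0 (-11.2 to -2.05). These 8 libraries lay at or below the median total count of 7504710, as did 3 libraries that scored below 0 (calcitriol replicate 6 and vehicle replicates 5 and 6).

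Calcitriol moved 2 of the 9 Krueppel-like factors past the test: Klf2 rose and Klf7 fell. In the other 6 genes tested (Klf3, Klf4, Klf6, Klf10, Klf11 and Klf13) the change did not pass, and Klf12 was below the filter on low counts. Calls were made with edgeR (quasi-likelihood F test) where the Benjamini-Hochberg adjusted p, over the 11905 genes with enough counts, was under 0.05. By that rule 31.5% of all genes tested were called, 16.1% as higher and 15.5% as lower, so 2 calls among the 8 tested KLF genes is a share no higher than that of genes at large. The median log2 change of the 8 genes was -0.03, against -0.01 over all genes tested, and their median absolute change was 0.18, against 0.15.

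The 2 genes that passed are shown with the sequence around their start sites, 250 bases before and 50 after the start, from RefSeq on GRCm38.p6. Klf2 is read from the plus strand of chr8:72318812-72319111 and Klf7 from the minus strand of chr1:64121340-64121639. Capitals mark CACCC on either strand (GGGTG where it lies on the other strand), the core of the element that the KLF zinc fingers bind.
Klf2: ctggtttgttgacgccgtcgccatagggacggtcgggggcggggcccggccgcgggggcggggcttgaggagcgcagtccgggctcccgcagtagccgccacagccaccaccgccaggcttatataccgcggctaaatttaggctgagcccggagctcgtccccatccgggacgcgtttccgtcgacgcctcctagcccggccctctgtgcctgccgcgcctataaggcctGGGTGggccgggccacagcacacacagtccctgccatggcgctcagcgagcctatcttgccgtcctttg
Klf7: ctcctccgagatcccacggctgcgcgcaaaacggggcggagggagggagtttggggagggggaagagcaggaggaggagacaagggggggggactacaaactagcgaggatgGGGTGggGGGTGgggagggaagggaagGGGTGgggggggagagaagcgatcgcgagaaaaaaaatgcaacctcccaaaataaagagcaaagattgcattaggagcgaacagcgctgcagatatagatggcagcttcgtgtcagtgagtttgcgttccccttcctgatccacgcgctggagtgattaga

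The Klf2 window holds 1 such match and the Klf7 window 3, which lie close together upstream of the RefSeq start. Of the 9 members 8 had an entry in the promoter table, and 5 of these 8 windows held CACCC, which 57.5% of the 32851 mouse promoter windows of the same length also hold. The hexamers AGGTCA and AGTTCA, which serve as half-sites of the vitamin D receptor, were found on neither strand in any of the 8 windows. They occurred in 16.3% and 13.99% of all promoter windows. As CACCC was the only motif found in the member windows, matches of different motifs could not overlap there. A match or its lack describes these letters alone. The RefSeq starts of Klf2 and Klf7 fall inside the gene spans of GENCODE M21, which are the ones given for the members below, on GRCm38. The whole Klf7 window, with its 3 matches, lies inside the GENCODE span of Klf7. The Klf2 window had a GC content of 69.3% and the Klf7 window 58.3%, in a range of 45.7% to 77.7% over the 8 members, against a median of 52.7% over all windows.

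**Figure D1:**
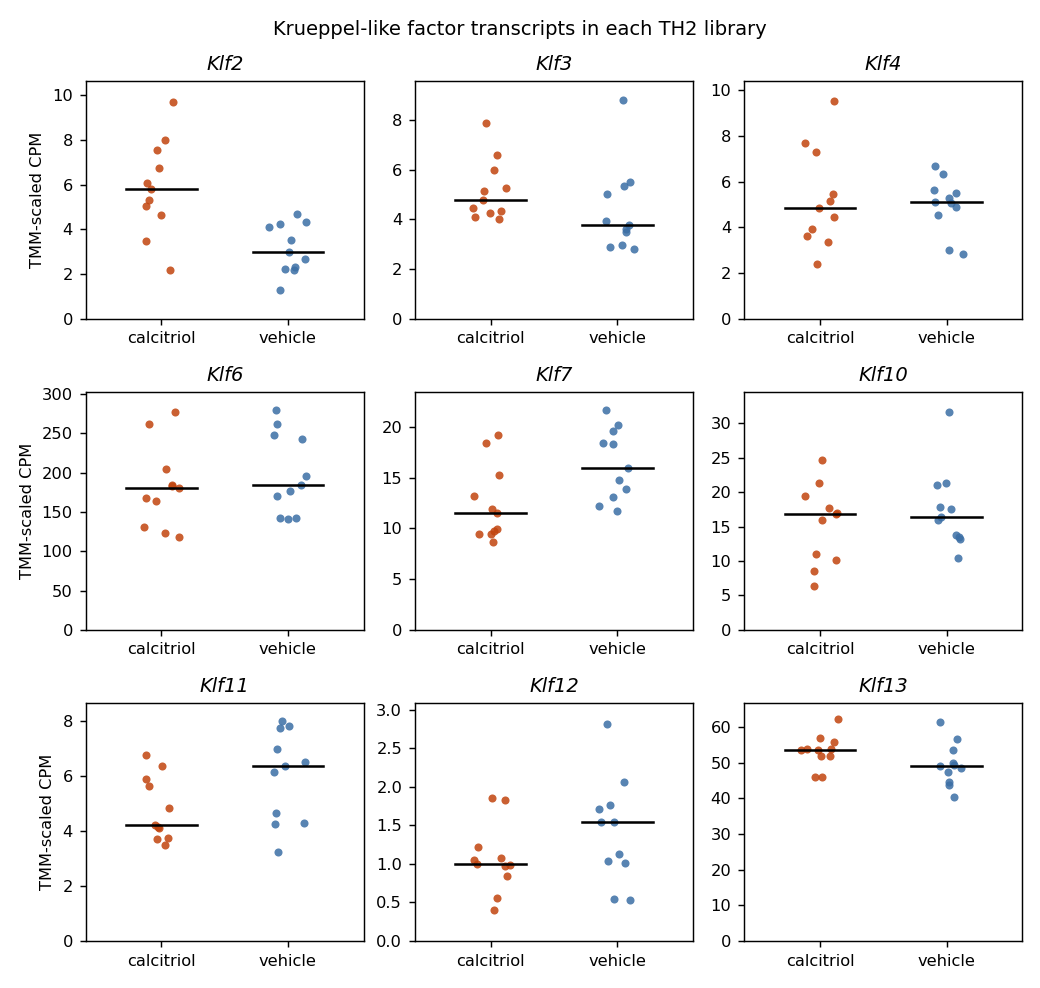
TMM-scaled CPM of the 9 Krueppel-like factors (y axes, each from 0), with 1 point per library in 11 calcitriol and 11 vehicle libraries and a line at each median. For Klf2, 8 of 11 calcitriol points lie above every vehicle point, while the groups overlap widely for Klf4, Klf6, Klf10 and Klf13.

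Klf2 (ENSMUSG00000055148, chromosome 8, 72319033 to 72321656, plus strand), the quiescence and trafficking factor, rose with calcitriol. Its level, in CPM after TMM scaling, ran from 2.19 to 9.71 with a median of 5.80 in calcitriol libraries and from 1.27 to 4.67 with a median of 2.96 in vehicle libraries. Calcitriol replicate 9 was the lowest of its group and vehicle replicate 9 the lowest of the other. Replicate numbers only name the libraries, and the labels do not pair them. Of 11 calcitriol libraries, 8 lay above every vehicle library. The log2 change was 0.86 ± 0.22 (SE), a 1.82-fold increase with a 95% interval of 0.41 to 1.31 on the log2 scale (edgeR, adjusted p = 0.00311). The means were 5.87 ± 2.11 CPM in calcitriol and 3.13 ± 1.10 CPM in vehicle libraries (SD, n = 11 each). Behind these levels stood 10 to 85 counts per library, 517 in all calcitriol and 316 in all vehicle libraries. In a bulk sample, more transcript per cell and more cells that express the gene cannot be told apart.

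Split by depth, the Klf2 change was 0.98 (edgeR, adjusted p = 0.0158) in libraries at or below the median total count, where 14.8% of all genes were called, and 0.77 (adjusted p = 0.0832) in those above it, where 26.5% were called, and the difference between these changes was -0.20 ± 0.43 (SE, adjusted p = 0.902). Klf2 is also a gene of endothelial cells. Of the 2 endothelial genes of the marker list, Pecam1 had 6367 counts in calcitriol and 3889 in vehicle libraries, and Cdh5 had 0 in all libraries; the part of Pecam1-bearing cells in the Klf2 change was not tested. The nearest protein-coding gene with enough counts to test, Eps15l1 at 19342 bases, had a median of 45.1 CPM in calcitriol and 44.2 CPM in vehicle libraries (log2 change 0.07 ± 0.06, adjusted p = 0.377).

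Klf7 (ENSMUSG00000025959, chromosome 1, 64029447 to 64122282, minus strand), a widely expressed member known from the growth of neurons, fell with calcitriol over all libraries. It ran from 8.70 to 19.3 CPM with a median of 11.5 in calcitriol libraries and from 11.8 to 21.7 CPM with a median of 15.9 in vehicle libraries. The groups overlap, with 6 of 11 calcitriol libraries below every vehicle library. Its log2 change was -0.43 ± 0.14 (SE), with a 95% interval of -0.73 to -0.14 (edgeR, adjusted p = 0.0201). Its neighbour Creb1 had a log2 change of -0.10 ± 0.08 (adjusted p = 0.348).

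The Klf7 change depended on which libraries were read. In the 11 libraries above the median total count, Klf7 was at 8.70 to 11.9 CPM with calcitriol (n = 6) and at 13.9 to 21.7 CPM with vehicle (n = 5), with no overlap, a log2 change of -0.93 ± 0.12 (edgeR, adjusted p = 9.07e-06). In the 11 libraries at or below it, the ranges were 11.5 to 19.3 CPM with calcitriol (n = 5) and 11.8 to 18.5 CPM with vehicle (n = 6), and the log2 change was 0.11 ± 0.16 (edgeR, adjusted p = 0.697). The difference between these changes was -1.04 ± 0.20 on the log2 scale (edgeR interaction term, adjusted p = 0.0107), and by that rule 0.37% of all genes, 44 of 11905, were called. Leaving out the 8 libraries with component 2 scores above 0 gave -0.78 ± 0.13 (edgeR, adjusted p = 5.4e-05), in a fit that called 30.1% of all genes. For the other 7 tested members the adjusted p of the depth difference lay between 0.345 and 0.975. In the 14 libraries left by that choice, 3 of them at or below the median total count, Klf7 was at 8.70 to 11.9 CPM with calcitriol and 12.2 to 21.7 CPM with vehicle, with no overlap. In the 8 left out it was at 13.2 to 19.3 CPM with calcitriol and 11.8 to 18.5 CPM with vehicle. The interaction test and this last fit were added after the data were seen, and the part that depth or the component 2 axis plays in the Klf7 values was not tested. How many of all genes lack overlap in these smaller sets of libraries was not counted, so nothing is read from the separation.

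**Figure D2:**
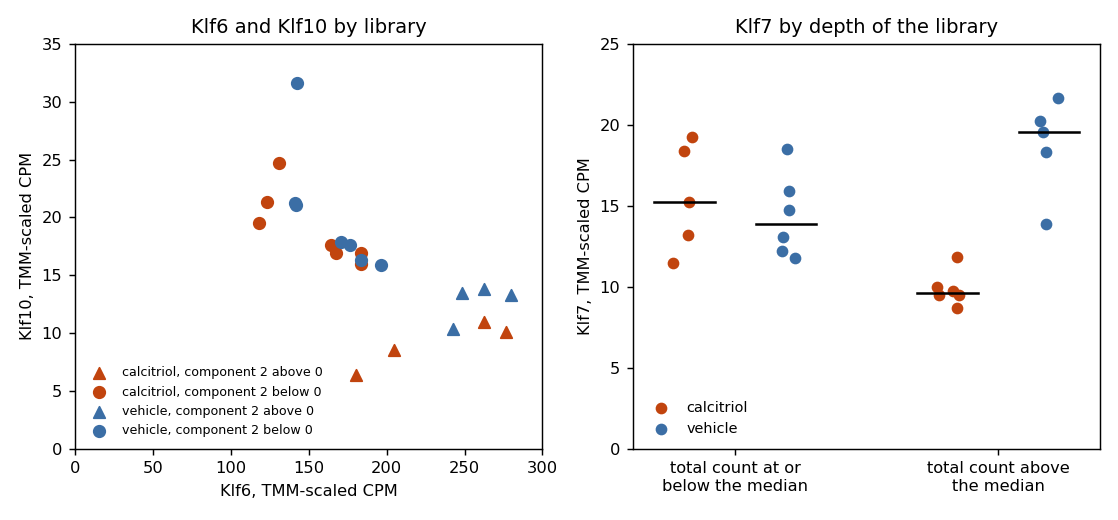
Left, Klf10 against Klf6 in TMM-scaled CPM, 1 point per library, coloured by group, with triangles for the 8 libraries that score above 0 on component 2. Right, Klf7 in TMM-scaled CPM for libraries at or below and above the median total count, with a line at each median; calcitriol libraries lie at 8.70 to 11.9 CPM and vehicle libraries at 13.9 to 21.7 CPM above the median count, and the groups overlap below it.

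Klf6 (ENSMUSG00000000078, chromosome 13, 5861482 to 5870394, plus strand), a member induced early in many cell types by growth signals and injury, was by far the most abundant of the 9 and did not pass the test. It ran from 118 to 277 CPM with a median of 180.2 in calcitriol libraries and from 141 to 280.1 CPM with a median of 184 in vehicle libraries. Calcitriol over vehicle gave a log2 change of -0.14 ± 0.16 (SE), with a 95% interval of -0.47 to 0.19 (edgeR, adjusted p = 0.562). A fit with 5 surrogate variables, which take up variation shared by many genes, called 5442 of 11905 genes. Klf6 passed there (-0.14 ± 0.04, edgeR adjusted p = 0.00349). Its within-group SD was 0.39 on the log2 scale, while the 835 genes within 0.5 of its mean log2 CPM had a median SD of 0.14, and 97.4% of them varied less.

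Klf10 (ENSMUSG00000037465, chromosome 15, 38291463 to 38300706, minus strand), the first of the TGF-beta-inducible pair and a factor that regulatory T cells need, varied in the opposite way across the same libraries. It ran from 6.42 to 24.7 CPM with a median of 16.9 in calcitriol libraries and from 10.4 to 31.6 CPM with a median of 16.4 in vehicle libraries. The highest libraries were calcitriol replicate 9 and vehicle replicate 9, which the labels do not pair. The log2 change was -0.16 ± 0.20 (SE), with a 95% interval of -0.57 to 0.26 (edgeR, adjusted p = 0.602), and the within-group SD of 0.52 exceeded that of 97.6% of the 1848 genes of like level. In libraries with component 2 scores above 0, Klf10 was at 6.42 to 11.0 CPM with calcitriol and 10.4 to 13.8 CPM with vehicle, below all other libraries of the same group, which started at 16.0 and 15.9 CPM. Klf6 in those libraries was at 180.2 to 277 CPM with calcitriol and 243 to 280.1 CPM with vehicle. The remaining libraries held 118 to 184 CPM with calcitriol and 141 to 196 CPM with vehicle. The vehicle ranges of Klf6 thus did not overlap and the calcitriol ranges met. Component 2 was drawn from variable genes of these same libraries. How many of all genes separate along it was not counted, so nothing is read from the separation of Klf10 or Klf6.

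Klf11 (ENSMUSG00000020653, chromosome 12, 24651274 to 24662789, plus strand), the other TGF-beta-inducible member, came nearest to the threshold among the genes not called. It ran from 3.50 to 6.76 CPM with a median of 4.20 in calcitriol libraries and from 3.23 to 7.98 CPM with a median of 6.34 in vehicle libraries. The lowest library of all belonged to the vehicle group, so the ranges overlap fully. The log2 change was -0.33 ± 0.16 (SE), with a 95% interval of -0.65 to -0.02 before adjustment (edgeR, adjusted p = 0.104). It passed in 4 of 37 alternative fits. In the fit added after the data were seen, without the 8 libraries with component 2 scores above 0, it was -0.50 (edgeR, adjusted p = 0.00838).

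Klf13 (ENSMUSG00000052040, chromosome 7, 63886351 to 63938915, minus strand), the T cell factor of the Ccl5 gene, had the smallest spread within groups of the 8 tested members. It ran from 46.0 to 62.3 CPM with a median of 53.5 in calcitriol libraries and from 40.3 to 61.3 CPM with a median of 49.1 in vehicle libraries. The change on the log2 scale was 0.11 ± 0.06 (SE), with a 95% interval of -0.03 to 0.24, the narrowest of the 8 tested members (edgeR, adjusted p = 0.235), and it passed with surrogate variables (0.11 ± 0.05, adjusted p = 0.0361). Its within-group SD was 0.15, near the median of 0.16 of 2292 genes of like level.

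Klf4 (ENSMUSG00000003032, chromosome 4, 55527143 to 55532466, minus strand), which limits the proliferation of T cells and marks myeloid and epithelial cells, was at 2.38 to 9.54 CPM with a median of 4.85 in calcitriol libraries and at 2.85 to 6.67 CPM with a median of 5.10 in vehicle libraries. Its log2 change was 0.08 ± 0.20 (SE), with a 95% interval of -0.32 to 0.48 (edgeR, adjusted p = 0.804). Calcitriol libraries spread to both sides of the vehicle range: 3 lay above every vehicle library. Of the 4 myeloid genes, Adgre1 had 50 counts over all calcitriol and 15 over all vehicle libraries, Itgam 4 and 0, Csf1r 1 and 0 and Lyz2 0 and 2. Of the epithelial genes, Epcam had medians of 20.2 CPM in calcitriol and 8.96 CPM in vehicle libraries, and Krt8 had 2 counts and 1.

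The CtBP-binding repressor Klf3 (ENSMUSG00000029178, chromosome 5, 64803388 to 64832901, plus strand) ran from 4.02 to 7.88 CPM with a median of 4.76 in calcitriol libraries and from 2.82 to 8.81 CPM with a median of 3.78 in vehicle libraries. The highest libraries were again calcitriol replicate 9 and vehicle replicate 9, not paired by the labels, and the groups overlap. A log2 change of 0.21 ± 0.18 (SE), with a 95% interval of -0.15 to 0.58, resulted (edgeR, adjusted p = 0.405). It passed in the libraries at or below the median total count alone (0.65, adjusted p = 0.0308), and the difference between the depth groups gave an adjusted p of 0.345. Klf3 overlaps C230096K16Rik on the same strand (78 counts in calcitriol and 111 in vehicle libraries) and Gm20033 on the other (27 and 36), so reads may have been split among them.

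Klf12 (ENSMUSG00000072294, chromosome 14, 99870632 to 100284679, minus strand), likewise a CtBP-binding repressor, had 2 to 21 counts per library, too few for the filter. There were 100 counts over all calcitriol libraries and 135 over all vehicle libraries, a depth-corrected ratio of 0.770 with an exact 95% counting interval of 0.588 to 1.004, which covers counting error only. The levels ran from 0.402 to 1.86 CPM with a median of 0.998 in calcitriol libraries and from 0.534 to 2.82 CPM with a median of 1.54 in vehicle libraries. With no filter, the log2 change was -0.40 ± 0.27 (edgeR, adjusted p = 0.387), so no difference was detectable at this depth.

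**Figure D3:**
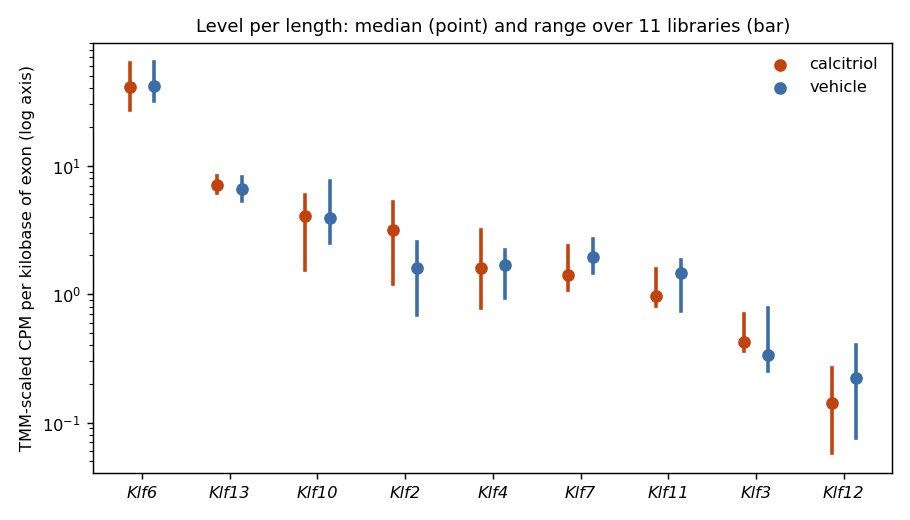
Level of each of the 9 genes as TMM-scaled CPM per kilobase of annotated exon (log axis), with the median as a point and the range over 11 libraries as a bar, calcitriol left of vehicle. Klf6 stands alone at the top with medians of 41.0 and 41.8, and Klf2 has medians of 3.14 with calcitriol and 1.604 with vehicle.

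Levels of different genes were compared per kilobase of annotated exon. With calcitriol the order of the medians, in CPM per kilobase, was Klf6 at 41.0, Klf13 at 7.10, Klf10 at 4.04, Klf2 at 3.14, Klf4 at 1.59, Klf7 at 1.41, Klf11 at 0.967, Klf3 at 0.423 and Klf12 at 0.143. With vehicle Klf6 was at 41.8, Klf13 at 6.52, Klf10 at 3.91, Klf7 at 1.96, Klf4 at 1.67, Klf2 at 1.604, Klf11 at 1.46, Klf3 at 0.337 and Klf12 at 0.221. The ranges of neighbours in these orders overlapped except for Klf6 over Klf13 in both groups and, with calcitriol, Klf13 over Klf10, Klf11 over Klf3 and Klf3 over Klf12. With the longest transcript as the length, the calcitriol ranges of Klf13 and Klf10 and those of Klf11 and Klf3 overlapped too. Without regard to length, the 9 genes together held 228 to 363 CPM with calcitriol and 247 to 377 CPM with vehicle, of which Klf6 made up a median of 61.8% and 63.2%.

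Of the wider family, 17 further KLF and SP genes were in the table and 8 could be tested, of which 2 were called (25%, beside 31.5% of all genes). Klf8, also a CtBP-binding repressor, fell, and Sp6, an SP factor of skin and tooth development, rose. Klf8 ran from 1.75 to 6.76 CPM with a median of 3.12 in calcitriol libraries and from 3.52 to 8.65 CPM with a median of 5.36 in vehicle libraries, with 8 of 11 calcitriol libraries below every vehicle library (log2 change -0.70 ± 0.18, edgeR adjusted p = 0.00338). Sp6 ran from 2.10 to 7.33 CPM with a median of 4.33 in calcitriol libraries and from 0.988 to 4.80 CPM with a median of 3.37 in vehicle libraries (0.61 ± 0.22, edgeR adjusted p = 0.0347). Leaving out 1 of 7 libraries ended the Sp6 call, with adjusted p from 0.0545 to 0.0750, and these were calcitriol replicates 5, 6 and 8 and vehicle replicates 1, 2, 4 and 10.

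The broadly expressed Sp1, Sp3 and Sp4, which bind the same GC boxes as the KLFs, had narrow intervals around 0. Sp1 was at a median of 88.5 CPM with calcitriol and 89.4 CPM with vehicle (log2 change -0.01 ± 0.05, edgeR adjusted p = 0.948). Sp3 was at 139 and 133 CPM (-0.01 ± 0.05, adjusted p = 0.938) and Sp4 at 41.4 and 39.9 CPM (0.05 ± 0.06, adjusted p = 0.583). Klf9 was at 21.9 and 21.2 CPM (0.13 ± 0.08, adjusted p = 0.257), while Klf16 (-0.22 ± 0.17) and Sp2 (0.08 ± 0.23) had wider errors. The signs of the Sp1 and Sp3 changes turned in 9 of 37 alternative fits each, within a range of -0.08 to 0.05 for Sp1 and of -0.10 to 0.08 for Sp3.

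**Figure D4:**
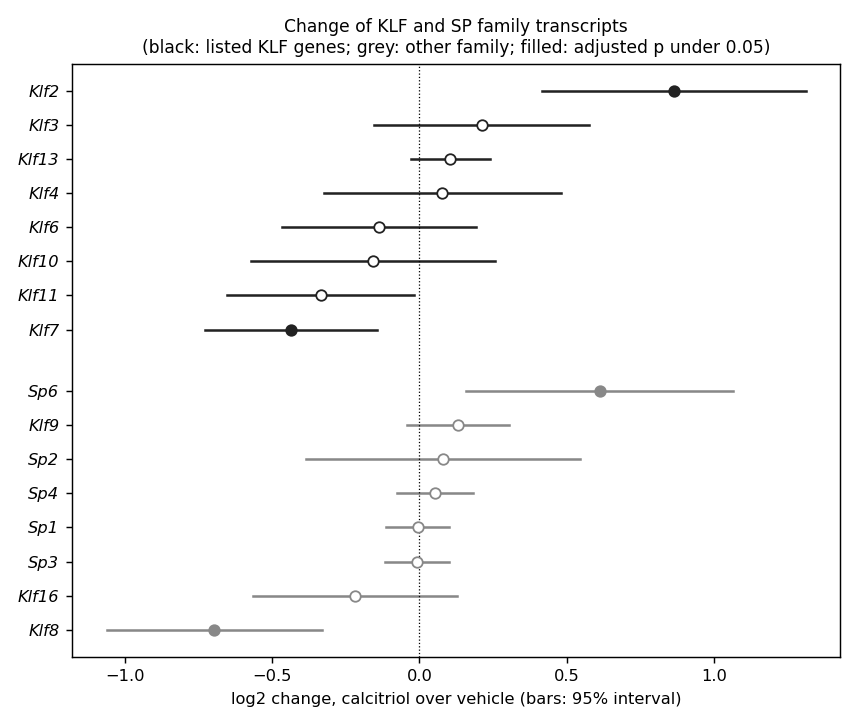
Log2 change of calcitriol over vehicle (x axis) with its 95% interval for the 8 tested genes of the list (black) and 8 other tested KLF and SP genes (grey), filled where the adjusted p was under 0.05. Klf2 and Sp6 lie right of 0 and Klf7 and Klf8 left of it, and Sp1 and Sp3 sit at 0.

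Below the filter, the erythroid factor Klf1 had 24 counts in calcitriol and 32 in vehicle libraries, and the epithelial factor Klf5 had 27 and 24. Klf14, Klf15 and Klf17 had no count in any library, and Sp5, Sp7, Sp8 and Sp9 had at most 7 counts in either group.

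Of 7 tested genes of T cell trafficking linked to KLFs, 3 rose and 3 fell, 85.7% called beside 31.5% of all genes. The list was chosen with earlier results known and some of its genes are left out, so nothing is read from that share. The median log2 change was -0.47. S1pr1, the lymphoid exit receptor and best-known target of KLF2, was at 9.95 to 52.7 CPM with a median of 27.8 in calcitriol libraries and at 17.8 to 80.9 CPM with a median of 24.3 in vehicle libraries (log2 change -0.47 ± 0.34, edgeR adjusted p = 0.325). It did not pass, and the groups overlap widely.

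Among those that passed, Ccr7, the chemokine receptor for lymph node entry, fell to a median of 57.9 CPM with calcitriol, against 125 CPM with vehicle (-0.94 ± 0.18, edgeR adjusted p = 0.000345). Itgb7, the gut-homing integrin chain, rose by 0.48 ± 0.08 (adjusted p = 4.66e-05) and S1pr4, a related sphingosine phosphate receptor, by 0.32 ± 0.06 (adjusted p = 0.000214). Cd69, an activation marker that holds cells in tissue, fell to a median of 43.6 CPM with calcitriol, against 71.3 CPM with vehicle (-0.57 ± 0.16, adjusted p = 0.0101). Cxcr3 fell and Il7r rose as well.

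Of 12 tested regulators of KLF expression and turnover 5 rose and 0 fell (edgeR), also with DESeq2 and limma-voom, and at an unadjusted p under 0.05 edgeR likewise gave 5 higher and 0 lower. The share called was 41.7%, beside 31.5% of all genes, and the median log2 change was 0.08. Mef2a, a MADS-box factor of the family that binds the Klf2 and Klf4 promoters, was at 33.2 to 47.1 CPM with calcitriol and 20.9 to 28.8 CPM with vehicle, without overlap (0.76 ± 0.06, edgeR adjusted p = 3.08e-10), as in 4.36% of all genes tested. Map3k2, the kinase at the top of the ERK5 cascade, rose by 0.49 ± 0.07 (adjusted p = 5.1e-06), Foxo1, a forkhead activator of Klf2, by 0.31 ± 0.07 (adjusted p = 0.00137) and Fbxw7, a ubiquitin ligase subunit that targets KLF2 protein, by 0.29 ± 0.05 (adjusted p = 0.000108). Itch, a ligase of KLF10, rose too. The ERK5 kinase gene Mapk7 itself and its activator Map2k5 did not pass.

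Of 11 tested corepressor and coactivator genes, 4 rose and 2 fell (54.5%, beside 31.5% of all genes), with a median log2 change of 0.00. The acetyltransferase Crebbp rose by 0.28 ± 0.06 (edgeR, adjusted p = 0.000377), Ctbp1 by 0.15 ± 0.05 (adjusted p = 0.0227) and Sin3b by 0.12 ± 0.04 (adjusted p = 0.0219), while Hdac2 had a log2 change of -0.23 ± 0.07 (adjusted p = 0.0175). Ctbp2 fell and Kat2b rose as well. With libraries scaled by total counts alone, the Ctbp1 and Sin3b calls were lost (log2 changes of 0.08 and 0.05).

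In the TGF-beta pathway, which induces Klf10 and Klf11, 4 of 12 tested genes rose and 3 fell (58.3%, beside 31.5% of all genes), with a median log2 change of 0.05. The ligand gene Tgfb3 rose to 25.03 to 96.9 CPM with calcitriol, against 3.94 to 16.9 CPM with vehicle (2.46 ± 0.27, edgeR adjusted p = 2.43e-07), and the receptor gene Tgfbr2 to 212 to 253 CPM, against 159 to 197 CPM (0.36 ± 0.04, adjusted p = 1.32e-07). Neither gene's groups overlapped, as in 4.36% of all genes. The coreceptor Tgfbr3 rose by 0.22 ± 0.05 (adjusted p = 0.00175), and Skil, a repressor of SMAD signalling, had a log2 change of -0.37 ± 0.07 (adjusted p = 0.000168). Smad7 rose, and Tgfb1 and Ski fell.

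**Figure D5:**
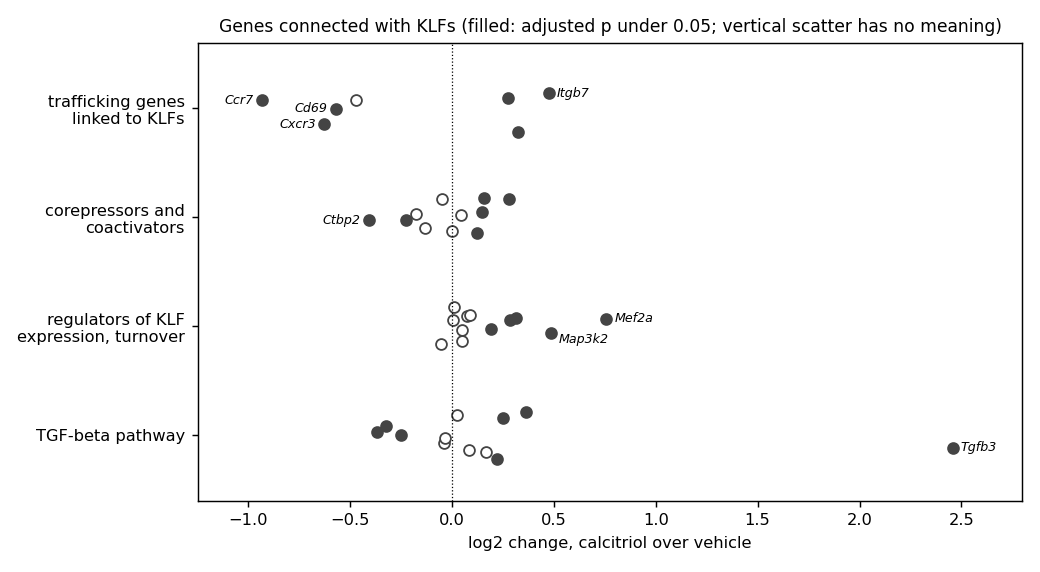
Log2 change of calcitriol over vehicle (x axis) for each tested gene of the 4 lists connected with KLFs (rows), filled where the adjusted p was under 0.05 and named where a called change exceeded 0.4. Tgfb3 stands far to the right at 2.46, and Ccr7 lies farthest left at -0.94.

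The gene nearest to each tested member in its pattern over libraries was found from the Pearson correlation of log2 CPM after the group means were subtracted, over 22 libraries. These values describe libraries that fall into sets, share depth and treatment mix, and carry no test. Klf6 was most like Upp1, Npr3 and Ripk2 (r of 0.97, 0.97 and 0.96), and Klf10 most like Clspn, Exo1 and Dgcr8 (r of 0.94, 0.93 and 0.92). Klf2 was most like Glipr2, Rnf167 and Pnrc1 (r of 0.85, 0.84 and 0.83) and Klf7 most like Mindy4, Sun1 and Emilin2 (r of 0.83, 0.83 and 0.82). For Klf11 the order was Map3k11, Gtse1 and Hist1h4d (r of 0.80, 0.79 and 0.79), for Klf3 Icam1, 6430511E19Rik and Dennd5a (r of 0.78, 0.77 and 0.76), for Klf13 Mgmt, Gna15 and Gfi1 (r of 0.77, 0.73 and 0.72) and for Klf4 Zfp36l2, Tnip1 and H2-Ob (r of 0.76, 0.74 and 0.74). No member was among the 3 genes most like another member. Without replicates 1 and 2 of both groups, 18 libraries remained and some orders changed. For Klf4, Zfp36l2 then had rank 52 (r of 0.75), Tnip1 rank 96 (0.71) and H2-Ob rank 22. For Klf13, Mgmt had rank 14, Gna15 rank 47 and Gfi1 rank 27, and for Klf11, Map3k11 had rank 46. The genes given for Klf2, Klf3, Klf6, Klf7 and Klf10 stayed at rank 13 or better.

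Of the 18 nearest protein-coding neighbours of the 9 genes, 9 could be tested, of which 2 rose and 2 fell (44.4%, beside 31.5% of all genes). Tlr1, 91777 bases from Klf3, rose by 1.18 ± 0.12 (edgeR, adjusted p = 2e-08), and Grhl1, 33882 bases from Klf11, by 0.77 ± 0.24 (adjusted p = 0.0148). Azin1, 186720 bases from Klf10, had a log2 change of -0.24 ± 0.07 (adjusted p = 0.00872), and Akr1e1, more distant from Klf6, one of -0.38 ± 0.13 (adjusted p = 0.0292). None of these 4 genes neighbours a KLF gene that passed, and they are named after their values were seen.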

How the data were processed

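RNA was sequenced as 22 libraries of mouse TH2 cells, 11 with calcitriol and 11 with vehicle, with groups taken from the treatment label. Whether libraries share a culture or an animal is not stated. Replicate numbers were given in accession order and only name the libraries. Per the labels' protocols the library kit was a stranded total RNA kit. The deposited values are raw counts per Ensembl gene, and the submitters' processing notes name STAR 2.7.10a, HTSeq 0.13.5 and GRCm38; what each did, the strand setting and the annotation release were not stated there, so reads of overlapping genes may be shared. Symbols, coordinates and exon lengths came from GENCODE M21, also on GRCm38.

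Genes passing filterByExpr of edgeR 4.0.16 (R 4.3.3) were tested, 11905 in all, holding 99.7% of the counts. Libraries were scaled with TMM factors, and edgeR's quasi-likelihood test with robust dispersions and no covariate compared the groups, two-sided, with Benjamini-Hochberg adjustment over all genes tested. The log2 CPM used for correlations and spreads had a prior count of 2. Intervals of changes are 95% intervals from the same fit. The edgeR, DESeq2, limma-voom and fold-of-1.2 fits were run on simulated independent libraries with the same dispersion for all genes. Shared sets of libraries were not simulated, and the other fits were not tested in this way. Counting intervals cover counting error only.

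The members and lists were chosen with earlier results of these data known. Named were all KLF and SP genes, up to 4 genes of smallest p in each further list, testable neighbours of called members and the 3 genes most like each member; other genes named from the lists were chosen after their values were seen. Some genes of the trafficking list are not reported here and are left out of its counts. Lists were described by counts and medians, with no set test. Alternatives were DESeq2 1.42.0, limma-voom (limma 3.58.1) with and without library weights, other scalings and filters, non-robust dispersions, a test against a fold of 1.2, 5 surrogate variables (sva 3.50.0), libraries left out singly or in sets, sets of best-correlated libraries summed, and libraries split at the median depth. Protein sequences were not used here.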

Additional observations from a re-analysis of the deposited data

Results flagged for a closer look

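The calcitriol change of Klf7 differed between the libraries above and those at or below the median total count by -1.04 ± 0.20 (SE) on the log2 scale (edgeR interaction term, adjusted p = 0.0107 over 11905 genes). It was -0.93 in the deeper libraries, with 6 of 6 calcitriol libraries below every vehicle library there, and 0.11 in the shallower ones. The share of all genes separated like this in the deeper libraries was not taken. The shallower libraries are the 8 that score above 0 on component 2 and 3 that score below 0. In these 3, Klf7 was at 11.5 CPM with calcitriol (replicate 6) and at 13.1 and 12.2 CPM with vehicle (replicates 5 and 6). The part of depth and of component 2 was not tested. This test was chosen after the data were seen.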

How the results depend on the processing

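Over 37 alternative fits Klf2 ranged from 0.76 to 0.98 and lost its call once, in the libraries above the median depth. Klf7 lost its call against a fold of 1.2 (adjusted p = 0.263) and with sets of best-correlated libraries summed (-0.46, adjusted p = 0.0694), and reversed to 0.11 in the libraries at or below the median depth, where n was 5 and 6. Leaving out any single library kept the Klf2 and Klf7 calls. The number of KLF genes of the list called was 2 in the main test, 1 against a fold of 1.2, 5 with surrogate variables, 1 with sets summed and 2 or 3 with single libraries left out. Surrogate variables added Klf6 (-0.14, edgeR adjusted p = 0.00349), Klf11 (-0.34, adjusted p = 0.0339) and Klf13 (0.11, adjusted p = 0.0361). That fit called 5442 of all 11905 genes tested, against 3755 in the main test. Creb1, the tested neighbour of Klf7, also passed there (-0.12, edgeR adjusted p = 0.0326). The Klf11 call also arose with total counts only, above the median depth and without vehicle replicate 3 (adjusted p = 0.0494, 0.0265 and 0.0393).

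Counts over all genes were 3755, but 1166 against a fold of 1.2, 1766 in the shallower libraries, 2881 with sets summed and 5442 with surrogate variables. They were 3467 to 3806 with single libraries left out. Against a fold of 1.2 the other lists kept 0 corepressor, 2 trafficking, 1 other KLF and SP, 2 regulator, 2 TGF-beta and 1 neighbour call, of 6, 6, 2, 5, 7 and 4. In the shallower libraries 1 corepressor, 2 trafficking, 0 other KLF and SP, 2 regulator and 2 neighbour genes were called. At an unadjusted p under 0.05 edgeR gave 0 corepressor genes against a fold of 1.2 and 1 other KLF and SP gene in the shallower libraries. In the deeper libraries 3 corepressor genes were called. With sets summed 2 corepressor, 1 other KLF and SP and 1 neighbour gene were called, with no filter 2 corepressor genes, with total counts only 1 other KLF and SP gene, and with surrogate variables 7 neighbours. With single libraries left out the ranges were 4 to 6 corepressor, 5 to 6 trafficking, 1 to 2 other KLF and SP, 5 to 5 regulator, 6 to 8 TGF-beta and 3 to 5 neighbour calls. The cause of these shifts was not tested, beyond the fewer libraries or the higher bar that some settings impose by construction.

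Taking the longest transcript in place of all exons moved the mean level of Klf3 to 0.990 CPM per kilobase with calcitriol and 0.838 with vehicle, of Klf10 to 5.05 and 5.75 and of Klf13 to 8.32 and 7.73. At 2 to 21 counts per library, Klf12 could not be tested under the filter. No paired or blocked analysis was run, because the labels give no replicate numbers and no animal or culture. Component 2 scores followed accession order in both groups, and no fit was blocked on that order.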
